A study of Mus musculus with 12 samples.

Results

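The response of EML1 cells to culture with IL7 and FLT3L was compared between cells carrying TEL-AML1 and cells carrying the empty vector, gene by gene. All 12 of 12 arrays of the series entered the comparison, grouped by sample title into 2 vectors and 3 conditions, with 2 arrays in each of 6 groups. The measure was the interaction: the change from untreated in TEL-AML1 cells minus the change from untreated in empty-vector cells, at day 5 and at day 7. A positive value means that TEL-AML1 cells moved further up, or less far down, than empty-vector cells.

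EML1 is a multipotent haematopoietic progenitor line. It derives from the marrow of male BDF1 mice and carries LRARalpha403SN, a retroviral vector with a truncated retinoic acid receptor alpha, so every group shared that transgene. TEL-AML1 cells had been infected with the lentiviral vector pWPI holding the fusion, and the empty-vector cells with pWPI alone. Untreated cells of both vectors were kept in IMDM with horse serum and medium conditioned by BHK/MKL cells. The treated groups were taken after 5 and 7 days of IL7 and FLT3L, which the labels' culture protocol gives as 10 ng/ml and 80 ng/ml together with β-mercaptoethanol, on confluent OP9 stromal cells in α-MEM with fetal bovine serum, with 50000 EML1 cells plated. The titles name only the cytokines, and the stroma and the change of medium are read from that protocol. Each change from untreated is thus a change of cytokines, feeder cells, serum and medium at once, and the interaction asks where that combined step differed by vector. The line is 1 immortalised model, and the labels do not say whether the arrays of a group came from separate infections or cultures, so the p-values rest on the spread between arrays of a group, and this may be technical.

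IL7 and FLT3L are the cytokines that expand and commit early lymphoid progenitors: IL7 signals through IL7R and JAK-STAT, and FLT3L through the receptor tyrosine kinase FLT3. TEL-AML1 joins ETV6 to RUNX1 and is the commonest fusion of childhood B-cell precursor leukaemia, where it acts in part as a repressor at RUNX sites. Interferon-stimulated genes are the antiviral programme that cells switch on through interferon response elements in their promoters.

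Values are linear intensities of 1 probe set per gene. Changes and interactions are on the log2(intensity + 16) scale, followed by their standard error, and that scale understates the change of dim genes. Each adjusted p is limma's, with the Benjamini-Hochberg method across the 12345 genes tested, and a gene is called where it is under 0.05. Array medians ran from 68.1 to 72.9. Precision is limited by the number of arrays, and the median standard error of an interaction was 0.14. The progenitor genes Kit and Cd34 were bright on all 12 arrays, at 2186 to 2744 and 1927 to 2565, and the B-cell receptor component Cd79a stayed between 39.5 and 49.1. The Etv6 probe set, for the gene whose start is in the fusion, read 1455 to 1673 across the 6 TEL-AML1 arrays and 1183 to 1528 across the 6 empty-vector arrays. Whether it or the Runx1 probe set reads the fusion transcript was not tested.

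Across the 12345 genes, the change in TEL-AML1 cells and that in empty-vector cells correlated at Pearson's r = 0.776 at day 5 and 0.710 at day 7 and at Spearman's rho = 0.556 and 0.610, as a description across genes, which are not independent replicates. In TEL-AML1 cells 197 genes passed the test at day 5 (1.6%), of which 144 rose (1.17%) and 53 fell (0.429%). At day 7 there were 964 (7.81%), with 585 higher (4.74%) and 379 lower (3.07%). In empty-vector cells 1920 passed at day 5 (15.6%), with 1037 higher (8.4%) and 883 lower (7.15%). At day 7 there were 1907 (15.4%), with 774 higher (6.27%) and 1133 lower (9.18%). Those unequal counts do not show that genes differed between the vectors. The interaction itself was past the threshold for 4 genes at day 5 (0.0324% of those tested), with 2 higher (0.0162%) and 2 lower (0.0162%) in the TEL-AML1 response. It was past the threshold for 10 genes at day 7 (0.081%), with 7 higher (0.0567%) and 3 lower (0.0243%). All 4 genes of day 5 were among the 10 of day 7. The pair of interactions share the untreated arrays, so the second is no independent repeat of the first. At an unadjusted p under 0.05 there were 946 genes at day 5 (7.66%) and 1112 at day 7 (9.01%), with 601 and 761 of them higher.

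**Figure D1:**
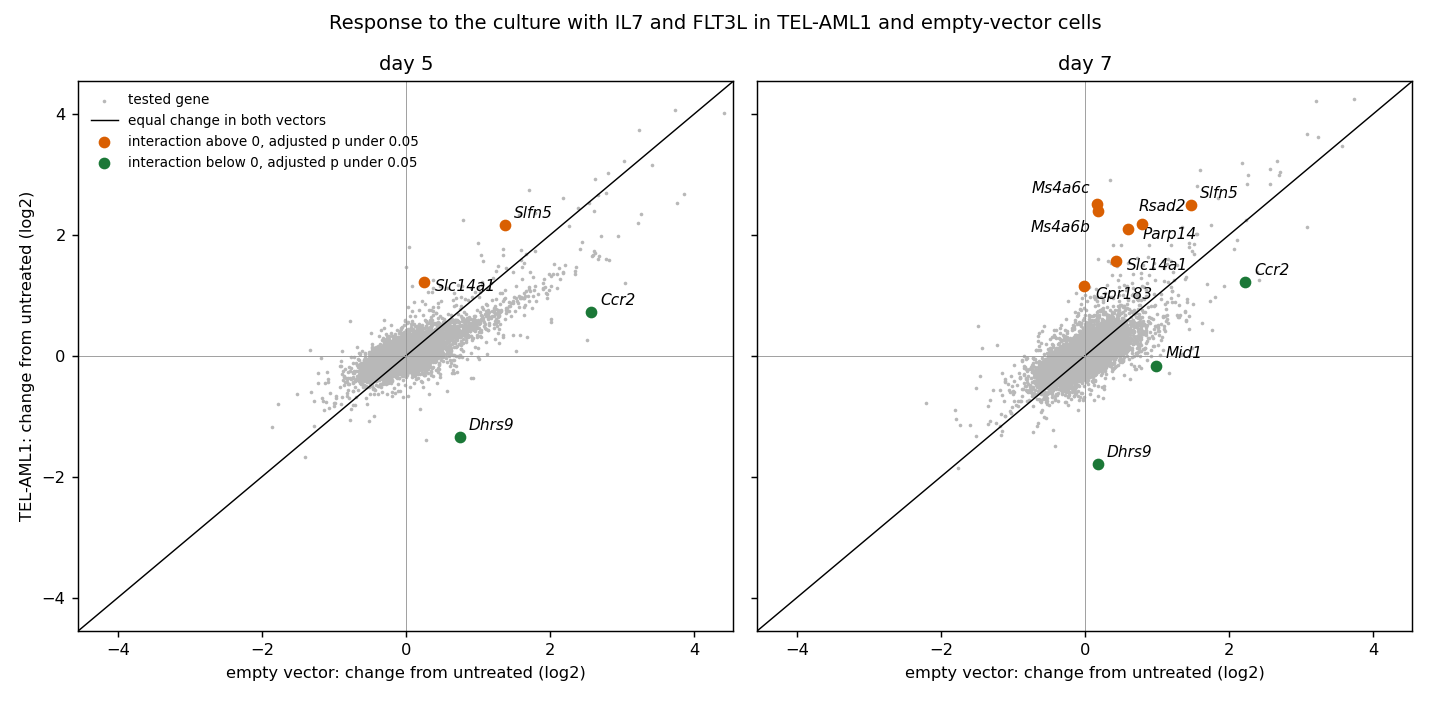
Change from untreated in TEL-AML1 cells (vertical axis, log2) against the change in empty-vector cells (horizontal axis, log2) at day 5 (left panel) and day 7 (right panel), one grey point per tested gene. The diagonal marks an equal change in both vectors; coloured points are the 4 and 10 genes with an adjusted interaction p under 0.05, and of the genes more than 1 from the diagonal, 27 of 35 lie below it at day 5 and 32 of 46 above it at day 7.

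The 10 called genes fell into 4 patterns by how each vector's own change tested at day 7. Ccr2, Parp14, Rsad2, Slc14a1 and Slfn5 rose in both vectors, by unequal amounts. Gpr183, Ms4a6b and Ms4a6c rose in TEL-AML1 cells with no change past the threshold in empty-vector cells. Dhrs9 fell in TEL-AML1 cells and was not past the test in empty-vector cells. Mid1 was not past the test in TEL-AML1 cells and rose in empty-vector cells. For each of the 10, the sign of the day 7 interaction held in the least favourable pairing of arrays, taking for a positive value the lowest treated and highest untreated TEL-AML1 arrays against the highest treated and lowest untreated empty-vector arrays.

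Dhrs9, which encodes a short-chain dehydrogenase that oxidises retinol and steroid substrates, had the lowest interaction among called genes at both days. In TEL-AML1 cells it stood at 401 and 403 untreated, 135 and 163 at day 5 and 96.3 and 115 at day 7. In empty-vector cells it stood at 82.5 and 69.9 untreated, 154 and 124 at day 5 and 74.2 and 104 at day 7. The treated TEL-AML1 arrays thus overlapped the treated empty-vector arrays, while the untreated TEL-AML1 arrays lay far above every other. The gap between vectors, TEL-AML1 minus empty vector, on the log2 scale was 2.18 without treatment, 0.09 after 5 days and 0.22 after 7 days. The fall in TEL-AML1 cells at day 5 was -1.35 ± 0.15 (adjusted p = 0.00104), against a rise of 0.75 ± 0.15 (adjusted p = 0.0134) in empty-vector cells. The interaction was -2.09 ± 0.22 at day 5 (adjusted p = 0.0113) and -1.97 ± 0.22 at day 7 (adjusted p = 0.0126). Of the 14 tested genes of the retinoic acid list, Dhrs9 was the called one at both days, beside 0.0324% and 0.081% of all tested genes, and the list's median was -0.09 at day 5 and -0.08 at day 7, beside 0.03 and 0.01 over all tested genes.

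Ccr2, the receptor through which the chemokine CCL2 draws monocytes out of the marrow, rose in both vectors and by less with TEL-AML1. In TEL-AML1 cells it read 203 and 218 untreated, 359 and 354 at day 5 and 457 and 567 at day 7. In empty-vector cells it read 139 and 149 untreated, 975 and 900 at day 5 and 740 and 726 at day 7. The vectors' order turned: the untreated TEL-AML1 arrays were above the untreated empty-vector arrays, and the treated ones were below, with no overlap at either day. At day 5 the change was 0.72 ± 0.10 (adjusted p = 0.00405) in TEL-AML1 cells and 2.57 ± 0.10 (adjusted p = 4.84e-07) in empty-vector cells. The interaction was -1.85 ± 0.14 (adjusted p = 0.00119). At day 7 it was -1.01 ± 0.14 (adjusted p = 0.0331).

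Mid1, an X-linked ubiquitin ligase bound to microtubules, did not move past the test in TEL-AML1 cells. The 6 TEL-AML1 arrays held 172 and 172 untreated, 186 and 168 at day 5 and 166 and 139 at day 7. Empty-vector cells held 106 and 100 untreated, 260 and 229 at day 5 and 200 and 243 at day 7. All treated empty-vector arrays were above, and both untreated ones below, every TEL-AML1 array. The change in empty-vector cells at day 7 was 0.99 ± 0.11 (adjusted p = 0.00076), against -0.16 ± 0.11 (adjusted p = 0.469) in TEL-AML1 cells. The interaction was -1.09 ± 0.16 at day 5 (adjusted p = 0.0764) and -1.15 ± 0.16 at day 7 (adjusted p = 0.0315).

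Slc14a1, the urea transporter of red cells and kidney, rose in TEL-AML1 cells towards the level of empty-vector cells without reaching it. TEL-AML1 arrays read 490 and 476 untreated, 1202 and 1100 at day 5 and 1552 and 1370 at day 7. Empty-vector arrays read 1720 and 1660 untreated, 1988 and 2044 at day 5 and 2334 and 2256 at day 7. Every TEL-AML1 array was below every empty-vector array, and the gap between vectors was -1.77, -0.80 and -0.65 on the log2 scale in the 3 conditions. The change at day 5 was 1.22 ± 0.08 in TEL-AML1 cells (adjusted p = 2.07e-05) and 0.25 ± 0.08 in empty-vector cells (adjusted p = 0.0617). The interaction was 0.97 ± 0.12 at day 5 (adjusted p = 0.0263) and 1.12 ± 0.12 at day 7 (adjusted p = 0.0103). Beside 0.0324% and 0.081% of all tested genes called at day 5 and day 7, none of the 19 tested erythroid genes was called. Their median interaction was 0.01 at day 5 and 0.26 at day 7. The day 7 median was 0.15 without replicate 1 of TEL-AML1 at day 7 and 0.05 without replicate 1 of both vectors at day 7. At day 7, 14 members were above 0 and 5 below, beside 6299 of 12345 tested genes above 0. Ermap, an erythroid membrane protein, stood at 1.26 ± 0.49 at day 7 (adjusted p = 0.488). The members with the smallest p went the other way. They were Mpp1 at day 5 (-0.53 ± 0.21, adjusted p = 0.624) and Slc25a37 at day 7 (-0.43 ± 0.15, adjusted p = 0.431).

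**Figure D2:**
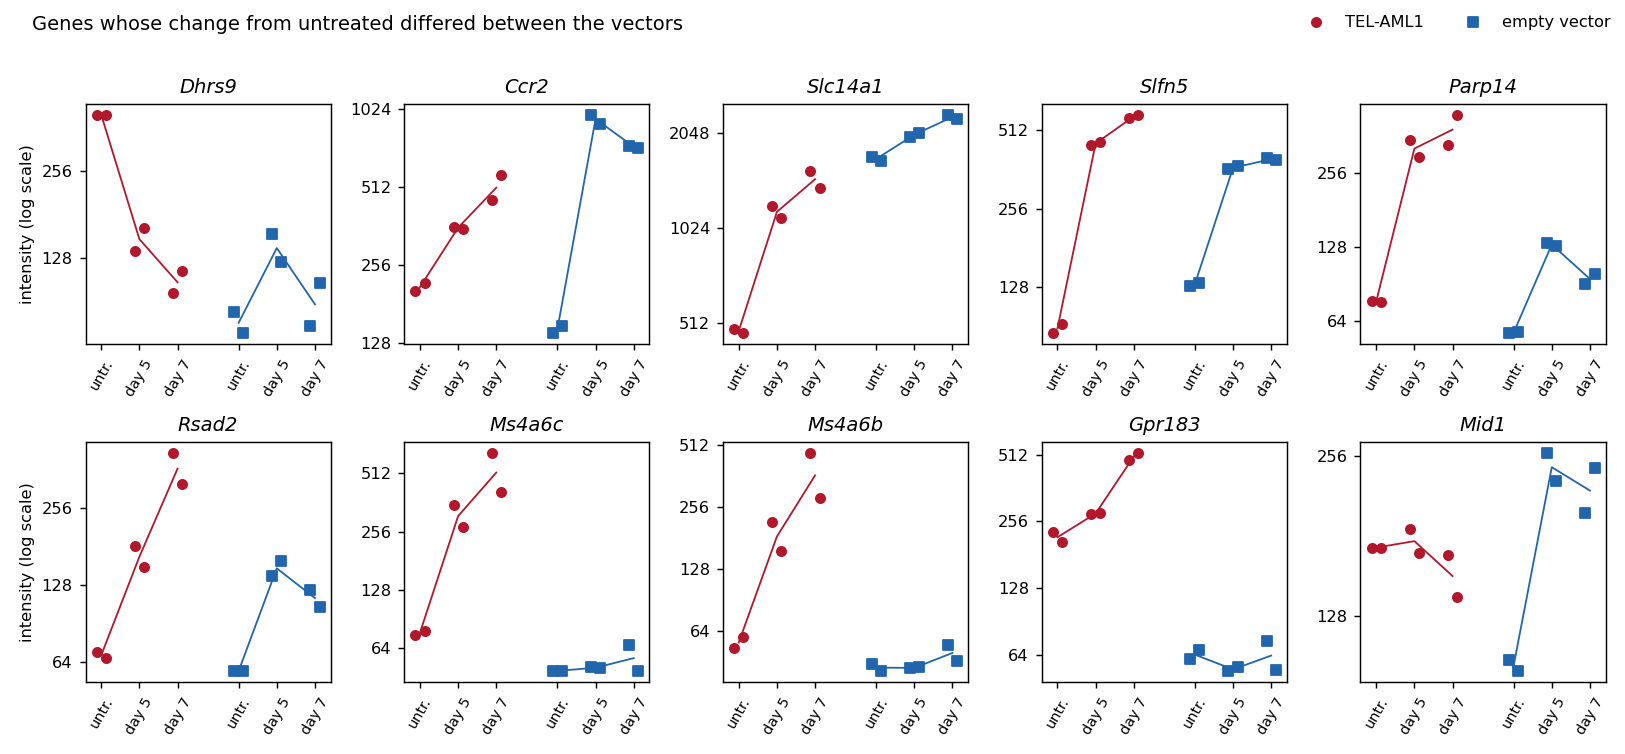
Intensity on each array (log axis) of the 10 genes called at day 7, with TEL-AML1 cells as red circles on the left of each panel and empty-vector cells as blue squares on the right, in the order untreated, day 5 and day 7; lines join the geometric means of the 2 arrays. Dhrs9 ends near the same level in both vectors, Slc14a1 of TEL-AML1 cells stays below that of empty-vector cells, and Ms4a6b, Ms4a6c and Gpr183 climb in TEL-AML1 cells while empty-vector arrays stay between 40.8 and 73.5.

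Of the genes higher in the TEL-AML1 response, Slfn5, Parp14 and Rsad2 belong to the interferon-stimulated list. Slfn5 is a member of the schlafen family, which restrains growth and viral replication and is induced by type I interferon. It read 85.6 and 93.1 in untreated TEL-AML1 cells, 450 and 459 at day 5 and 567 and 585 at day 7. It read 130 and 133 in untreated empty-vector cells, 362 and 371 at day 5 and 399 and 392 at day 7. Both vectors rose, and the TEL-AML1 arrays were the lower pair before treatment and the higher pair after it, with no overlap in any condition. The change at day 7 was 2.49 ± 0.07 with TEL-AML1 (adjusted p = 4.55e-08) and 1.48 ± 0.07 with the empty vector (adjusted p = 1.96e-06). The interaction was 0.78 ± 0.10 at day 5 (adjusted p = 0.028) and 1.01 ± 0.10 at day 7 (adjusted p = 0.0103).

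Parp14 encodes an ADP-ribosyltransferase that takes part in STAT6 and interferon signalling. Its intensities were 77.0 and 76.5 in untreated TEL-AML1 cells, 348 and 295 at day 5 and 333 and 441 at day 7. In empty-vector cells they were 57.1 and 57.5 untreated, 132 and 129 at day 5 and 90.1 and 99.5 at day 7. The treated TEL-AML1 arrays were all above the brightest empty-vector array. The untreated empty-vector arrays of Parp14 were below 59.9, the intensity that a gene's mean had to pass to be tested. Whether they held signal above background was not tested. The day 7 change of Parp14 was 2.11 ± 0.12 in TEL-AML1 cells (adjusted p = 4.75e-06) and 0.60 ± 0.12 in empty-vector cells (adjusted p = 0.0117). The interaction was 0.86 ± 0.17 at day 5 (adjusted p = 0.27) and 1.51 ± 0.17 at day 7 (adjusted p = 0.0126).

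Rsad2 encodes viperin, a radical SAM enzyme that makes an antiviral nucleotide, and its neighbour on chromosome 12, Cmpk2, encodes the mitochondrial kinase that supplies the substrate. Rsad2 read 69.7 and 66.2 in untreated TEL-AML1 cells, 181 and 151 at day 5 and 421 and 318 at day 7. It read 59.2 and 58.7 in untreated empty-vector cells, both below the filter intensity of 59.9, 139 and 159 at day 5 and 123 and 105 at day 7. The vectors overlapped at day 5 and were apart at day 7, when TEL-AML1 arrays were higher. The interaction was -0.03 ± 0.19 at day 5 (adjusted p = 0.978) and 1.39 ± 0.19 at day 7 (adjusted p = 0.0315). The difference between those days was 1.42 ± 0.19, which had the smallest adjusted p of that comparison and did not pass (0.219). Cmpk2 read 52.1 and 47.1, then 379 and 230, then 650 and 348 in TEL-AML1 cells, and 49.5 and 48.1, then 111 and 83.3, then 70.8 and 63.2 in empty-vector cells. The 4 untreated arrays of Cmpk2 were below 59.9, so the size of its interaction is uncertain. Its replicates were further apart than those of Rsad2, and with the widest fitted value of all genes at day 7, 2.55 ± 0.38, it lay just outside the threshold (adjusted p = 0.0509; 1.46 ± 0.38 at day 5, adjusted p = 0.566).

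The 250 bases before the annotated starts of Slfn5 and Rsad2 are shown because, among the 8 called genes looked up with a promoter entry, these were the ones holding the core of the interferon response element, GAAA followed by any 2 bases and GAAA, on either strand. The sequences are from RefSeq, build GRCm38.p6, 5′ to 3′ along the gene's own strand, at chr11:82951852-82952101 (plus strand) and chr12:26456453-26456702 (minus strand), with the match in capitals.
Slfn5: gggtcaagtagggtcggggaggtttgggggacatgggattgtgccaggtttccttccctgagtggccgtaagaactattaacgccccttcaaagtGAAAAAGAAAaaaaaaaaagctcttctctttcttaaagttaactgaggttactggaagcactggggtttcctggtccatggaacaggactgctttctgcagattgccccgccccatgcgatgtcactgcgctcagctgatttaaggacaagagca
Rsad2: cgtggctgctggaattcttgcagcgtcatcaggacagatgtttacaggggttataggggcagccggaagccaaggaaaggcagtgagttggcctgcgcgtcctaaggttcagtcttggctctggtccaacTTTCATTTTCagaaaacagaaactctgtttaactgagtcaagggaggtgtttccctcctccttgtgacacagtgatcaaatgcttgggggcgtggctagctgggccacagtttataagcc
The match begins 155 bases before the start of Slfn5 and 120 before that of Rsad2, where it lies on the opposite strand. The same letters occur in 240 of the 9879 promoters of tested genes (2.43%) and in 14 of the 33 interferon-stimulated genes with an entry (42.4%). The RUNX core TGTGGT was in none of the 8 called genes searched and in 1090 (11%) of the 9879. The STAT motif TTCNNNGAA was in none of the 8 and in 6.09% of the 9879. A match is a description of the letters in this window, and no binding was measured.

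The interferon-stimulated list held 60 genes, of which 51 had a probe set and 44 were bright enough to be tested. Of these 44, 1 had a called interaction at day 5 (Slfn5) and 3 at day 7 (Slfn5, Parp14 and Rsad2), all higher, beside 0.0324% and 0.081% of all tested genes called. The list's median interaction was -0.01 at day 5, with 22 members above 0 and 22 below, and 0.32 at day 7, with 34 above and 10 below; over all tested genes the medians were 0.03 and 0.01. At an unadjusted p under 0.05 the list had 8 higher and 2 lower members at day 5, and 19 higher and 0 lower at day 7. Over all tested genes 4.87% were higher and 2.79% lower at that p at day 5, and 6.16% and 2.84% at day 7. Its own changes were large in both vectors, with medians of 1.32 at day 5 and 1.57 at day 7 in TEL-AML1 cells, against 1.05 and 0.89 in empty-vector cells. The difference between the day 7 and day 5 interactions was above 0 in 41 of 44 members, beside 5819 of 12345 tested genes above 0. Its median over the list was 0.30, and no member was called. List members are not independent replicates, so these counts are a description.

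Among the other members, Isg20, an exonuclease that degrades viral RNA, had 248 and 263, then 1482 and 1283, then 1657 and 1629 in TEL-AML1 cells, and 322 and 369, then 1282 and 1180, then 1235 and 1319 in empty-vector cells. TEL-AML1 arrays were the lower pair untreated and the higher pair at both days, and the interaction was 0.57 ± 0.14 at day 5 (adjusted p = 0.489) and 0.77 ± 0.14 at day 7 (adjusted p = 0.114). Ifit3, which binds foreign RNA with its relatives, changed side, at -0.92 ± 0.47 (adjusted p = 0.676) and 0.79 ± 0.47 (adjusted p = 0.653). At the low end of day 7, Cxcl10, the chemokine that draws T cells, stood at -0.49 ± 0.22 at day 5 (adjusted p = 0.65) and -0.42 ± 0.22 at day 7 (adjusted p = 0.616). Ifi27l2a, an interferon-induced protein of the nuclear envelope, stood at -0.73 ± 0.23 and -0.39 ± 0.23 (adjusted p = 0.585 and 0.655). Leaving out 1 array at a time moved the list's median at day 7 between 0.25 and 0.49, the highest without replicate 1 of the empty vector at day 7.

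**Figure D3:**
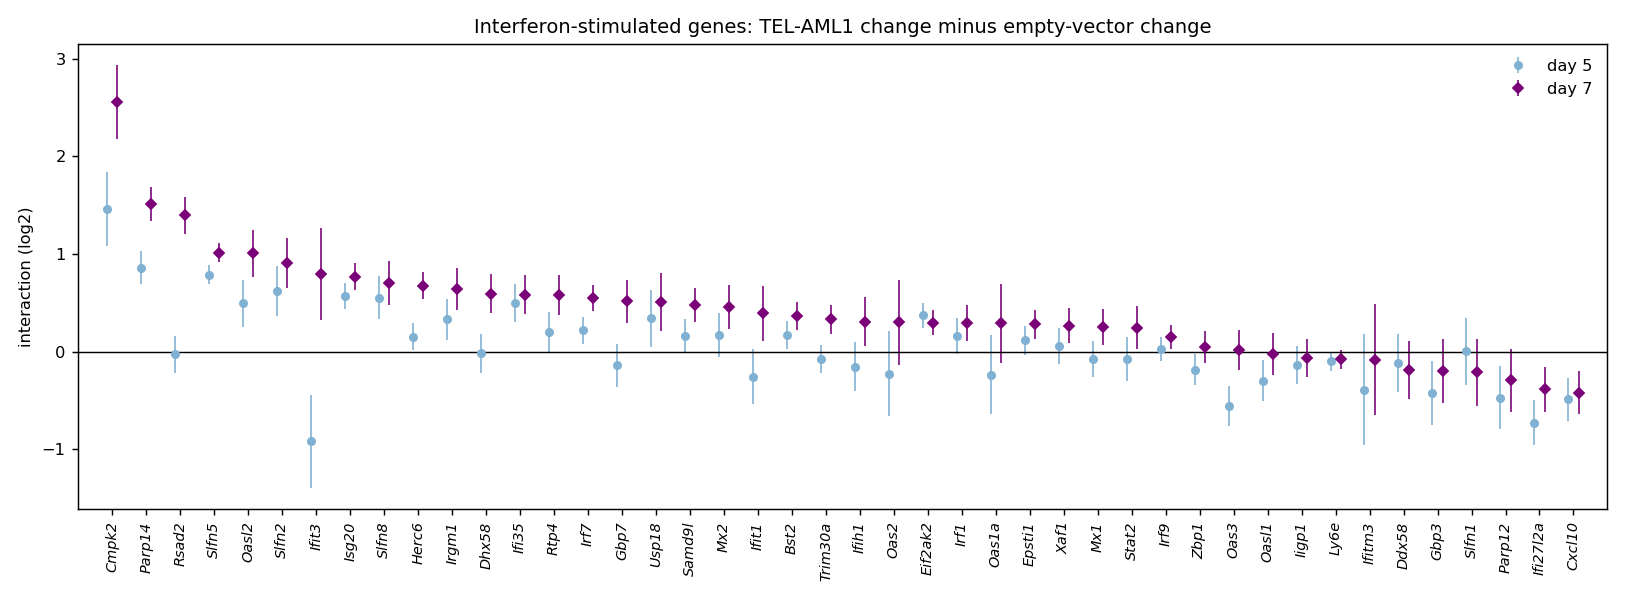
Interaction (log2, vertical axis) of the 44 tested interferon-stimulated genes at day 5 (light circles) and day 7 (dark diamonds), ordered by the day 7 value, with bars of 1 standard error. At day 7, 34 of 44 values are above 0, and most diamonds lie above the circle of the same gene.

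The MHC class I and immunoproteasome list covers genes that load peptides for T cells and are also reached by interferon. Beside 0.0324% and 0.081% of all tested genes called at day 5 and day 7, none of its 17 tested members was called. Its median interaction was 0.07 at day 5 and 0.33 at day 7, with 15 of 17 above 0 at day 7, beside 6299 of 12345 tested genes. Nlrc5, the transactivator of MHC class I genes, read 106 and 117 untreated, 261 and 273 at day 5 and 355 and 404 at day 7 in TEL-AML1 cells. In empty-vector cells it read 220 and 189, 343 and 384, and 405 and 374. TEL-AML1 arrays were lower until day 5 and overlapped with the others at day 7, and the interaction was 0.37 ± 0.14 at day 5 and 0.75 ± 0.14 at day 7 (adjusted p = 0.623 and 0.147). Tap2, a subunit of the peptide transporter, went the other way at -0.76 ± 0.14 and -0.46 ± 0.14 (adjusted p = 0.212 and 0.379).

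Ms4a6c and Ms4a6b, membrane-spanning proteins of monocytes and lymphocytes whose genes are neighbours on chromosome 19, had the highest called interactions. Ms4a6c read 75.2 and 79.2 in untreated TEL-AML1 cells, 349 and 272 at day 5 and 652 and 409 at day 7. It read 48.8 and 49.2 in untreated empty-vector cells, 51.2 and 50.5 at day 5 and 66.8 and 48.7 at day 7. All treated TEL-AML1 arrays were far above every empty-vector array. Ms4a6b read 52.9 and 60.2, then 218 and 156, then 471 and 285 with TEL-AML1, and 44.5 and 40.8, then 42.3 and 42.6, then 54.6 and 46.1 with the empty vector. The same arrays were high for both genes. The interaction of Ms4a6c was 1.76 ± 0.27 at day 5 (adjusted p = 0.111) and 2.35 ± 0.27 at day 7 (adjusted p = 0.0126). That of Ms4a6b was 1.47 ± 0.28 (adjusted p = 0.243) and 2.23 ± 0.28 (adjusted p = 0.0245). For Ms4a6b, all 6 empty-vector arrays and 1 untreated TEL-AML1 array were below 59.9, the intensity that a gene's mean had to pass to be tested, and for Ms4a6c 5 empty-vector arrays were. Both genes passed that filter through the treated TEL-AML1 arrays, and whether the dim arrays held signal above background was not tested, so the sizes of these interactions are uncertain. These 2 genes are close copies, and whether their probe sets share targets was not tested, so they may count as 1 observation.

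Their promoters are shown as a pair because the genes moved together. The windows are the 250 bases before each annotated start in RefSeq, build GRCm38.p6, at chr19:11469118-11469367 for Ms4a6c and chr19:11518309-11518558 for Ms4a6b, both on the plus strand. Capitals mark the runs of 12 or more bases that are identical in the alignment of the pair.
Ms4a6c: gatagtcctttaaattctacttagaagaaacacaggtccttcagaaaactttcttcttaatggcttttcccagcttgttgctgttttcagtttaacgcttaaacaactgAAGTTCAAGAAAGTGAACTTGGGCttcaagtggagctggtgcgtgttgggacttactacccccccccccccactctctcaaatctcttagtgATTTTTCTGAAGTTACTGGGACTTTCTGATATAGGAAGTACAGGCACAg
Ms4a6b: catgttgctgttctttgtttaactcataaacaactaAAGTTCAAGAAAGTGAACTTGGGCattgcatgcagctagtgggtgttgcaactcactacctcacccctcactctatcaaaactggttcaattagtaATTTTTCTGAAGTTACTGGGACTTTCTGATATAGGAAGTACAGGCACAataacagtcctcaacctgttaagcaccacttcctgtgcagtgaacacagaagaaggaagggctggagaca
A local alignment covered 180 positions with 148 identical bases (82.2%), of which 72 lay in the capital runs, and the runs sit further from the start in Ms4a6b.  None of the 3 motifs above was found in either window.

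Ms4a6b, Ms4a6c and Ccr2 stand in the monocyte and macrophage list. Of its 15 tested members, 1 was called lower at day 5 (Ccr2), and at day 7 Ms4a6b and Ms4a6c were called higher and Ccr2 lower, beside 0.0324% and 0.081% of all tested genes called. The median interaction of the list was 0.06 and 0.02. Csf1r, the receptor that defines the macrophage lineage, was at 0.13 at day 5 (adjusted p = 0.758) and 0.05 at day 7 (adjusted p = 0.89), and the F4/80 gene Adgre1 at -0.26 (adjusted p = 0.686) and -0.24 (adjusted p = 0.661). The summed intensity of the 15 genes was 2690 and 2728 in untreated TEL-AML1 cells, 3245 and 3062 at day 5 and 4147 and 3707 at day 7. In empty-vector cells it was 2628 and 2560, 3344 and 3359, and 3168 and 3183. TEL-AML1 arrays were the lower pair at day 5 and the higher pair at day 7, in a sum that includes the called genes themselves.

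Gpr183, the receptor for oxysterols that guides B cells and dendritic cells, rose at day 7 in TEL-AML1 cells. It read 229 and 206 untreated, 278 and 278 at day 5 and 485 and 521 at day 7 with TEL-AML1. With the empty vector it read 61.0 and 67.3, 53.8 and 56.2, and 73.5 and 54.8. Of these empty-vector arrays, 3 were below the filter intensity of 59.9. Whether they held signal above background was not tested, so the size of the gap between vectors is uncertain. The vectors were apart in every condition, and the gap widened from condition to condition, at 1.54, 2.05 and 2.70 on the log2 scale. The day 7 change was 1.15 ± 0.11 in TEL-AML1 cells (adjusted p = 0.000165) and -0.01 ± 0.11 in empty-vector cells (adjusted p = 0.969). The interaction was 0.51 ± 0.15 at day 5 (adjusted p = 0.566) and 1.16 ± 0.15 at day 7 (adjusted p = 0.0293). Gpr183 was the called gene at day 7 among the 15 tested of the lymphoid priming list, beside 0.081% of all tested genes. The list's median was -0.07 at day 5 (-0.03 without replicate 1 of TEL-AML1 at day 5) and 0.12 at day 7. That of day 7 was 0.01 without replicate 1 of TEL-AML1 at day 7 and -0.02 without replicate 2 of the empty vector at day 7.

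B lineage genes and cytokine receptors gave no called interaction, beside 0.0324% and 0.081% of all tested genes called at day 5 and day 7. At those shares a list of this size would seldom hold a call, so the absence says little about these genes. Of 17 tested B lineage genes none was called, and the median was 0.01 at day 5 and -0.03 at day 7. The lowest was Dntt, the terminal transferase that adds bases at recombination joints. It read 46.4 and 48.8 untreated, 50.7 and 48.5 at day 5 and 52.0 and 44.9 at day 7 in TEL-AML1 cells. It read 74.3 and 73.5 untreated, 161 and 145 at day 5 and 235 and 120 at day 7 in empty-vector cells, all above every TEL-AML1 array. The change in empty-vector cells passed the test at both days, at 0.91 ± 0.21 (adjusted p = 0.0195) and 1.04 ± 0.21 (adjusted p = 0.0118), and that in TEL-AML1 cells did not (0.04 and 0.02). The interaction, -0.87 ± 0.30 at day 5 (adjusted p = 0.59) and -1.02 ± 0.30 at day 7 (adjusted p = 0.358), did not pass. All 6 TEL-AML1 arrays of Dntt were below the filter intensity of 59.9. The Dntt value of day 7 was -0.58 without replicate 1 of the empty vector at day 7 and -1.46 without replicate 2, when it passed (adjusted p = 0.00545). At day 5 Dntt passed without either empty-vector array of day 7 (adjusted p = 0.0266) and with only the compared groups in the fit, so its call depends on the setting. Il7r, the receptor of IL7, read 159 and 52.4 in TEL-AML1 cells at day 7 against 73.9 and 52.2 in empty-vector cells, a single bright array. Flt3 was too dim to be tested, between 45.3 and 55.9 on all arrays. In the list of 35 tested cytokine receptor and JAK-STAT genes, none called, the median was 0.01 at day 5 and 0.15 at day 7 (0.10 without replicate 1 of the empty vector or replicate 2 of TEL-AML1 at day 7). Its members with the smallest p at day 7 were Csf2rb2, a receptor subunit for IL3 (0.57 ± 0.13, adjusted p = 0.226), Ifngr1, the interferon gamma receptor chain (0.65 ± 0.17, adjusted p = 0.331) and the growth kinase Pim2 (0.70 ± 0.19, adjusted p = 0.335). The list of RUNX genes, ETV6 and corepressors had 14 tested members, none called, and medians of -0.01 and -0.03.

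**Figure D4:**
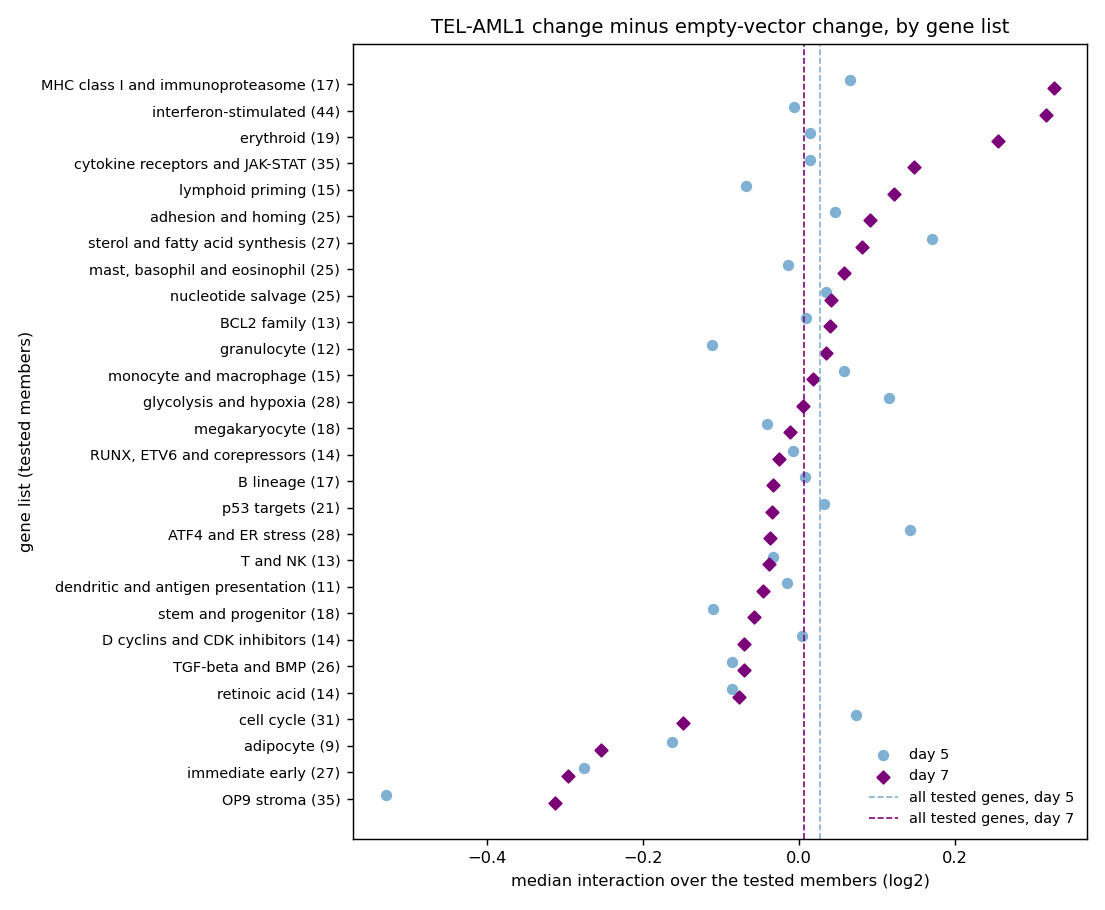
Median interaction (log2, horizontal axis) of each of 28 gene lists at day 5 (light circles) and day 7 (dark diamonds), with the number of tested members in brackets and dashed lines at the medians of all tested genes. The MHC class I, interferon-stimulated and erythroid lists have the highest medians at day 7, and the OP9 stroma, immediate early and adipocyte lists the lowest.

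The OP9 stroma and immediate early lists had the lowest medians. The OP9 stroma list holds collagens and other genes of marrow fibroblasts, and 35 of its 44 genes were tested. None was called, beside 0.0324% and 0.081% of all tested genes. Of the 35 stroma genes, 31 were below 0 at day 5 and 30 at day 7, and the median was -0.53 and -0.31. Over all tested genes 44.5% were below 0 at day 5 and 49.0% at day 7. The summed intensity of the 35 stroma genes was 4942 and 4772 in untreated TEL-AML1 cells, 12649 and 6389 at day 5 and 4411 and 7165 at day 7. In empty-vector cells it was 4221 and 4347, 15070 and 11540, and 4430 and 9487. Stroma genes were thus above untreated at day 5 in both vectors, with replicate 1 the higher at day 5 and replicate 2 the higher at day 7 in both. The collagen gene Col1a1 followed them, with 571 and 172 in TEL-AML1 cells at day 5 against 777 and 553 in empty-vector cells, and 88.0 to 99.1 on the 4 untreated arrays. Without replicate 2 of the empty vector at day 7 the stroma median of that day turned to 0.07, and without replicate 1 of TEL-AML1 at day 7 it was -0.04. The median of day 5 was -0.90 without replicate 1 of TEL-AML1 at day 5 and -0.12 without replicate 2. In these bulk RNA samples fewer cells of a type and less RNA per cell cannot be told apart. With the mean of the stroma list as a covariate, all 4 genes called at day 5 and all 10 called at day 7 remained called, among 10 and 20 in all. The slope of that covariate comes only from differences between the 2 arrays of each group. An effect of the stroma on the called genes was not tested.

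Immediate early genes, which answer within minutes to growth factors and to handling, were below 0 in 21 of 27 tested members at both days, with medians of -0.28 and -0.30. Both days share the untreated arrays. None was called, beside 0.0324% and 0.081% of all tested genes. Of all tested genes 44.5% were below 0 at day 5 and 49.0% at day 7. Egr1, a zinc finger factor induced by growth signals and lowest of the list, was at -1.67 ± 0.62 (adjusted p = 0.609) and -1.08 ± 0.62 (adjusted p = 0.642). Zfp36, which destabilises cytokine messages, read 247 and 323 in untreated TEL-AML1 cells, 152 and 194 at day 5 and 193 and 178 at day 7. Its empty-vector arrays stayed between 143 and 174. Its interaction was -0.70 ± 0.20 (adjusted p = 0.566) and -0.65 ± 0.20 (adjusted p = 0.368). The immediate early median of day 7 was -0.07 without replicate 2 of the empty vector at day 7, -0.53 without replicate 1 of that group and -0.18 without replicate 1 of TEL-AML1 at day 7. That of day 5 lay between -0.39 and -0.16 with 1 array left out. It was -0.16 without replicate 2 of the empty vector or replicate 1 of TEL-AML1 at day 5.

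Of 31 tested cell cycle genes, none was called, beside 0.0324% and 0.081% of all tested genes at day 5 and day 7. The list's median interaction was 0.07 at day 5 and -0.15 at day 7. Without replicate 1 or 2 of the empty vector at day 5, that of day 5 was 0.17 and 0.02. That of day 7 was -0.10 without replicate 1 of TEL-AML1 at day 7 and -0.06 without replicate 2 of the empty vector. The day 7 minus day 5 difference was below 0 in 31 of 31, with a median of -0.24, beside 6526 of 12345 tested genes below 0 (52.9%). Ccna2, the cyclin of S phase and G2, was at -0.46 ± 0.09 at day 7 (adjusted p = 0.168). Over all 12345 genes limma called 0 for the day 7 minus day 5 difference (0%), and 425 had an unadjusted p under 0.05 (3.44%).

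**Figure D5:**
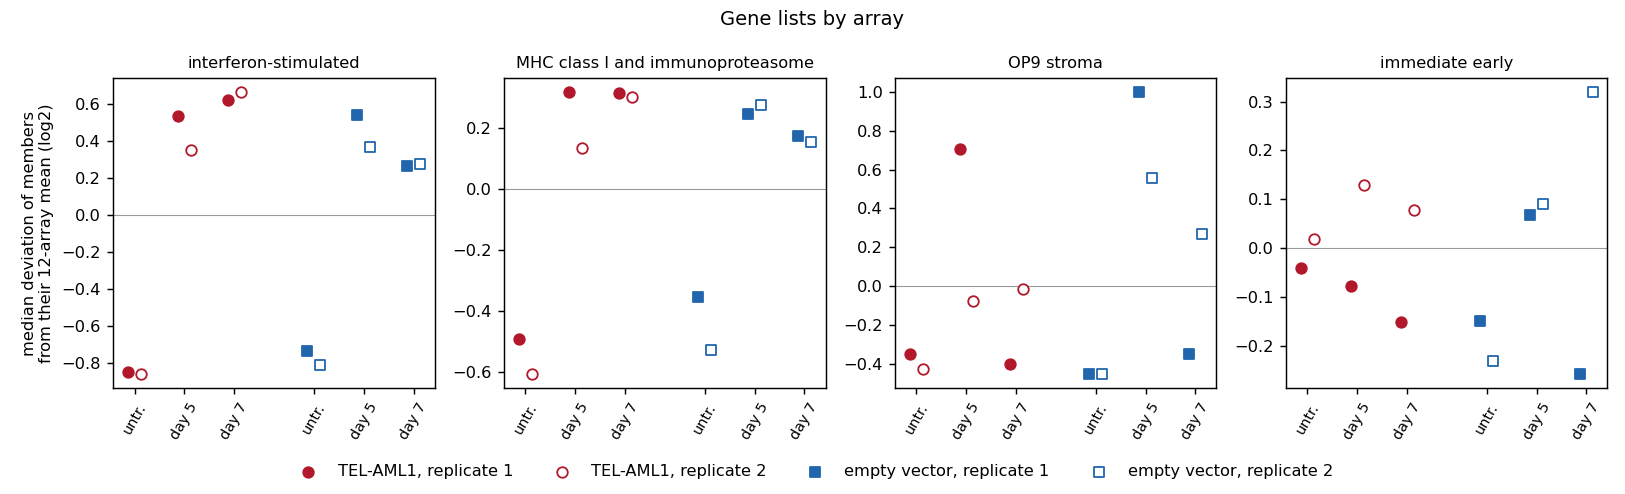
Median deviation of a list's members from their own mean over the 12 arrays (log2, vertical axis) on each array, for 4 lists, with TEL-AML1 cells as circles on the left and empty-vector cells as squares on the right, and replicate 1 filled and replicate 2 open. The interferon-stimulated list is higher on both TEL-AML1 arrays of day 7 (0.62 and 0.66) than on both empty-vector arrays of that day (0.27 and 0.27), and the stroma list differs most between replicates.

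The counts of calls depended on single arrays and on the replicate number. Without either untreated array of either vector, or without replicate 1 of TEL-AML1 at day 5, 1 gene was called at day 5, Ccr2. Without replicate 2 of TEL-AML1 or of the empty vector at day 5, there were 2, Ccr2 and Dhrs9, and without replicate 1 of the empty vector at day 5 Slc14a1 and Slfn5 were also lost. Without either empty-vector array of day 7, 19 were called at day 5. Slfn5 was lost at day 5 without either TEL-AML1 array of day 7. Ccr2 at day 5 held in all 12 fits with 1 array left out, with an adjusted p of at most 0.0191. At day 7 no gene was called without any 1 of the 4 untreated arrays. Without either empty-vector array of day 5, 4 were called, Dhrs9, Parp14, Slc14a1 and Slfn5, and Ccr2, Gpr183, Mid1, Ms4a6b, Ms4a6c and Rsad2 were lost. Without replicate 1 or 2 of the empty vector at day 7 there were 19 and 74, and without replicate 2 of TEL-AML1 at day 7 there were 23. Ccr2 was also lost without either TEL-AML1 array of day 5 and without replicate 1 of either vector at day 7. Gpr183 was lost without either TEL-AML1 array of day 7, Mid1 without replicate 2 and Rsad2 without replicate 1 of that group. The values of the interactions themselves moved less: at day 7 Dhrs9 stayed between -2.17 and -1.76, Ms4a6c between 2.02 and 2.67 and Slfn5 between 0.96 and 1.06 over the same 12 fits.

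Arrays of the same number in the same condition deviated together across the vectors, and a fit that blocks on replicate number inside each condition was run beside the one above. The pairing was read from these same arrays. The blocked fit leaves fewer residual degrees of freedom than the 6 of the fit with no block. It called 9 genes at day 5 (0.0729%), 5 higher (0.0405%) and 4 lower (0.0324%), and 32 at day 7 (0.259%), including all 4 and all 10 above. Of the 32, 24 were higher (0.194%) and 8 lower (0.0648%), and 7 were interferon-stimulated genes: Cmpk2, Irgm1, Isg20, Parp14, Rsad2, Slfn5 and Slfn8. The following genes of that fit were chosen after their values were seen. Nrp1, a coreceptor for semaphorins and VEGF, had 55.1 and 51.6 untreated, 112 and 67.4 at day 5 and 54.9 and 66.1 at day 7 in TEL-AML1 cells. It had 254 and 278 untreated, 176 and 127 at day 5 and 71.1 and 109 at day 7 in empty-vector cells. For Nrp1, 3 TEL-AML1 arrays were below the filter intensity of 59.9. Its blocked interaction was 1.34 ± 0.14 at day 5 (adjusted p = 0.0345) and 1.57 ± 0.14 at day 7 (adjusted p = 0.00778), against adjusted p-values of 0.452 and 0.149 with no block. Ccl9, a chemokine of myeloid cells, had 331 and 325, 471 and 367, and 902 and 610 in TEL-AML1 cells, and 269 and 293, 375 and 276, and 371 and 230 in empty-vector cells. Replicate 1 was the brighter array at both days in both vectors, and its blocked interaction was 1.08 ± 0.10 at day 7 (adjusted p = 0.00778; 0.379 with no block). Glul, glutamine synthetase, went the other way. It stood at 335 and 300, 328 and 296, and 230 and 317 in TEL-AML1 cells, and at 82.1 and 68.1, 161 and 171, and 107 and 164 in empty-vector cells. Its blocked interaction was -1.03 ± 0.11 at day 5 (adjusted p = 0.0345) and -0.93 ± 0.11 at day 7 (adjusted p = 0.0276), against adjusted p-values of 0.562 and 0.335 with no block. Fabp5, a fatty acid carrier, was at 209 and 221, 326 and 338, and 257 and 312 in TEL-AML1 cells, and at 506 and 513, 429 and 394, and 285 and 363 in empty-vector cells. Its groups were apart until day 5 and overlapped at day 7, with a blocked interaction of 1.02 ± 0.10 at day 7 (adjusted p = 0.0109; 0.0904 with no block).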

How the data were processed

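RNA was measured on 12 Affymetrix arrays after TRIzol extraction, RNeasy cleaning and labelling as biotinylated cRNA, per the labels' protocols. The deposited table holds 1 linear intensity for each of 35556 probe sets, from 15.2 to 7932; the authors' background correction, summarisation and normalization are not given in the sources used here, and the values were kept as they stood because the log2 array medians lay within 0.0794 of each other. Probe sets listing 1 gene in the platform annotation (21218) were used, 1 per gene with the highest mean, and 12345 of 18820 genes passed a filter at the 40th percentile of all probe sets (59.9). Probe sets listing several genes (1881) or not listed (12457) were left out. No column of the table was left unmapped.

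One model of 6 group means on log2(intensity + 16) was fitted with limma 3.58.1 in R 4.3.3 (lmFit and eBayes, 6 residual and 4.23 prior degrees of freedom) and tested on simulated data. There it made 15 false calls at day 5, 7 at day 7 and 0 for the difference between days. Of 50 genes given an interaction of 0.5, it recovered 18 at day 5 and 16 at day 7. Of 50 given 1, it recovered 39 and 40. Of 50 given 2, it recovered 49 and 50, and of 50 given 3, all 50 at both days. The simulated data thus held many more changed genes than were called here. Recovery in the measured data was not tested and may be lower. Named were up to 12 called genes each way per day whose sign held in every combination of arrays (8 for the difference between days), skipping clone names, and of each of 28 lists up to 4 members with the smallest p per day, with some fixed genes such as Etv6, Runx1, Il7r, Flt3, Kit and Dntt. Csf1r, Adgre1, Cxcl10, Ifi27l2a, Ifit3, Egr1, Col1a1, Cd34 and Cd79a, and the genes of the blocked fit, came on top and were chosen after values were seen. The members, lists and tests were chosen with earlier results of these data known. Replicate numbers in the titles were checked for pairing: the deviations of same-numbered TEL-AML1 and empty-vector arrays correlated at 0.432 untreated, 0.543 at day 5 and 0.378 at day 7, while over all 15 pairs of groups r lay between -0.242 and 0.543. The block within condition rests on these correlations, not on a statement in the labels. Promoters and chromosomes are RefSeq's for GRCm38.p6, matched by symbol.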

Additional observations from a re-analysis of the deposited data

Results flagged for a closer look

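Each called interaction is itself a test that the change from untreated differed between TEL-AML1 and empty-vector cells, and the 14 results of 10 genes are listed here for that reason. At day 5 the differences were -2.09 (Dhrs9), -1.85 (Ccr2), 0.78 (Slfn5) and 0.97 (Slc14a1) on the log2 scale. At day 7 they were -1.97 (Dhrs9), -1.15 (Mid1) and -1.01 (Ccr2) in the lower direction. In the higher direction they were 1.01 (Slfn5), 1.12 (Slc14a1), 1.16 (Gpr183), 1.39 (Rsad2), 1.51 (Parp14), 2.23 (Ms4a6b) and 2.35 (Ms4a6c). 4 genes, Ccr2, Dhrs9, Slc14a1 and Slfn5, appear at both days, which share the untreated arrays.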

How the results depend on the processing

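With 2 arrays a group, the precision is set by 12 arrays, and no probe's brightness over background was given. Of 27 alternatives, 12 kept the count of calls at day 5 within 1.5 times and 13 at day 7; for the rest the cause was not tested. At day 5 (4 calls) array weights gave 7, only the compared groups 16, the replicate block within condition 9 and the stroma covariate 10. Leaving out both replicate 1 or both replicate 2 arrays of the treated groups gave 0 and 0, and leaving out 1 array gave 1 to 19. At day 7 (10 calls) no filter gave 5, only the compared groups 3, the block within condition 32 and the stroma covariate 20. Leaving out both treated replicate 2 arrays gave 55, and leaving out 1 array gave 0 to 74. For the difference between days (0 calls) leaving out both treated replicate 1 or replicate 2 arrays gave 96 and 28, fits whose spread comes only from groups left with 2 arrays, and leaving out 1 array gave 0 to 1. The replicate number as a plain block, which pairs arrays across all groups, gave 3 calls at day 5, 8 at day 7 and 0 for the difference between days. Centring arrays on their medians gave 7 higher and 1 lower at day 7, against 7 and 3. The day 5 value of Rsad2, near 0, changed sign with median centring (0.0078), with a pseudocount of 64 (0.0059), without both treated replicate 2 arrays (0.18) and with 1 array left out: without TEL-AML1 day 5 replicate 2 (0.095), empty vector day 5 replicate 2 (0.064) and TEL-AML1 untreated replicate 1 (0.0039), in a range of -0.15 to 0.095. Apart from Rsad2, no called gene changed sign under any alternative run on it.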
